A study of Homo sapiens with 6 samples.

Results

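The genes described here are those of the interferon response and of the sensing of foreign or misplaced RNA and DNA. They were chosen by name from the comparison table that the authors deposited. A gene was taken when its symbol was IFI followed by digits and a suffix, IFIT, IFITM, IFNAR, IFNGR, IFNL, IRF, OAS or GBP followed by digits, or 1 of a fixed set of single names such as ISG15, MX1, TLR3, IFIH1, CGAS and STING1. Pseudogenes were left out. The rule found 51 genes among the 25287 of the table, and it used no measured value.

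Total RNA was sequenced from NCI-H1299, a long-established line of human lung carcinoma cells, classed as lung adenocarcinoma by the labels. The 6 libraries form 2 groups of 3, shALDH18A1 with a short hairpin RNA against ALDH18A1 and shControl with a control hairpin. The design text sets sh-ALDH18A1 beside puro, a name it does not explain. Cells of both groups were grown in RPMI1640 medium with serum and antibiotics, and no interferon or nucleic acid treatment is named in the labels. The hairpin sequences, the vector, and whether each group is a clone or a pool are not given in the sources used here. ALDH18A1 encodes P5CS, an enzyme of proline synthesis in mitochondria that the series title presents as an RNA-binding protein. Nothing in the labels says that replicate libraries are separate cultures, and the spread behind the p-values may then be technical.

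Cells detect viral or misplaced nucleic acid with sensors such as TLR3 in endosomes, RIG-I and MDA5 (the IFIH1 product) in the cytosol, and cGAS for DNA. These signal through the adaptors MAVS, STING1 and TICAM1 and the kinase TBK1 to IRF3 and IRF7, which switch on interferon genes. Secreted interferon then binds its receptors, and the kinases JAK1 and TYK2 activate STAT proteins, which join IRF9 to bind the ISRE (interferon-stimulated response element) in the promoters of effector genes. Most nucleated cells carry the type I interferon receptor, and interferon-gamma acts through a separate receptor and a DNA element called the GAS (gamma-activated site).

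The values below are the authors' own. For each gene their deposited table gives 1 mean normalized count over libraries, 1 log2 fold change and 1 standard error (SE). Each gene also has a DESeq2 Wald p, adjusted by the Benjamini-Hochberg method over all genes. Below, a gene passed when its adjusted p was under 0.05, unless another setting is named. The authors' own calls mark 35 of the 51 genes up or down, 5 of them not past that threshold. These 5 are RSAD2, MX2 and OASL (up) and IFI27 and IFITM10 (down). Single-library values were not analysed here, which leaves depth per library unknown, and no gene can be given by sample. The numerator of the fold change is not named in the headers. ALDH18A1, which would show the direction, had a log2 fold change of -0.08 (adjusted p = 0.471, SE 0.07) in the authors' deposited table, and its 95% interval ran from 0.858-fold to 1.05-fold. With a shift of all fold changes to equal total counts on both sides it stood at -0.19 and passed (adjusted p = 0.0227), and with a shift to a median of 0 it did not (adjusted p = 0.962). As deposited, no difference in the targeted RNA was called between the groups, so a knockdown is not shown by these values. Genes are therefore placed on the positive or the negative side of the comparison, and no group is assigned to either side. The mean normalized counts of all genes sum to 43175646 in the authors' deposited table, and the 51 genes hold 0.0724% of that sum.

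Genes taken as markers of the carcinoma line were 3 keratins, EPCAM and CDH1 of epithelium and the mesenchymal gene VIM, and all were listed. KRT8, KRT18 and VIM had mean normalized counts of 18965, 14244 and 24591 in the authors' deposited table, and CDH1, EPCAM and KRT19 had 24.2, 41.4 and 5.77. KRT8 (0.32, SE 0.06) and KRT18 (0.61, SE 0.06) passed on the positive side and VIM (-0.48, SE 0.06) on the negative side in the authors' deposited table. Of 7 leukocyte markers 4 were listed, at 2.22 to 21.3, with PTPRC at 12.8 and CD3E, NKG7 and TYROBP not analysed here. CD14 and CD79A, both of that list, passed on the positive side in the authors' deposited table (2.33, SE 0.58, and 2.40, SE 0.59), while PTPRC (-0.83, SE 0.75) and LYZ (1.18, SE 1.99) did not pass. The summed leukocyte list stood at 57.2 mean normalized counts. Of 4 fibroblast markers DCN (2.54, SE 0.55) and PDGFRB (1.12, SE 0.21) passed and LUM (-0.57, SE 1.90) and COL3A1 (-0.09, SE 0.73) did not, in the authors' deposited table. Of 3 endothelial markers PECAM1 (2.53, SE 0.28) passed and VWF (-0.11, SE 0.31) and CDH5 (-0.26, SE 0.47) did not, in the authors' deposited table. The part of such RNA in the results below was not tested.

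Within the authors' deposited table, 30 of the 51 genes (58.8%) passed an adjusted p of 0.05, against 42.4% of all genes. Of these, 20 lay on the positive side, where 20.9% of all genes lay, and 10 on the negative side, where 21.5% of all genes lay. The chance of passing depends on the count, so the share was also set against genes of like abundance. Among members with a mean count of 100 or more in the authors' deposited table, 26 of 32 passed (81.2%), against 74.1% of all such genes. There, 16 members were positive (all genes 34.1%) and 10 were negative (all genes 39.9%). Between 10 and 100 mean counts, 4 of 7 members passed, all positive, against 26.7% of all such genes on either side. None of the 12 members with a mean count under 10 passed in the authors' deposited table, where 4.21% of all such genes did. With a shift to equal total counts on both sides, which takes 0.119 off every log2 fold change, the split became 17 positive and 13 negative.

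The 51 genes lay on both sides of 0. The median log2 fold change of the 51 genes was 0.38, against 0.03 over all genes, and their single values ran from -2.94 to 7.24 in the authors' deposited table. For the 32 members with a mean count of 100 or more the median was 0.10, against -0.07 over all such genes. A log2 fold change of 1 or more with an adjusted p under 0.05 was reached by 10 members, against 10.9% of all genes, and one of -1 or less by 3 members, against 7.06% of all genes, in the authors' deposited table. The 10 were TLR3, IFI44, GBP2, IFI6, STING1, IFITM2, IFNGR2, USP18, IFNAR1 and GBP3, and the 3 were IRF5, ISG20 and HERC5.

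**Figure D1:**
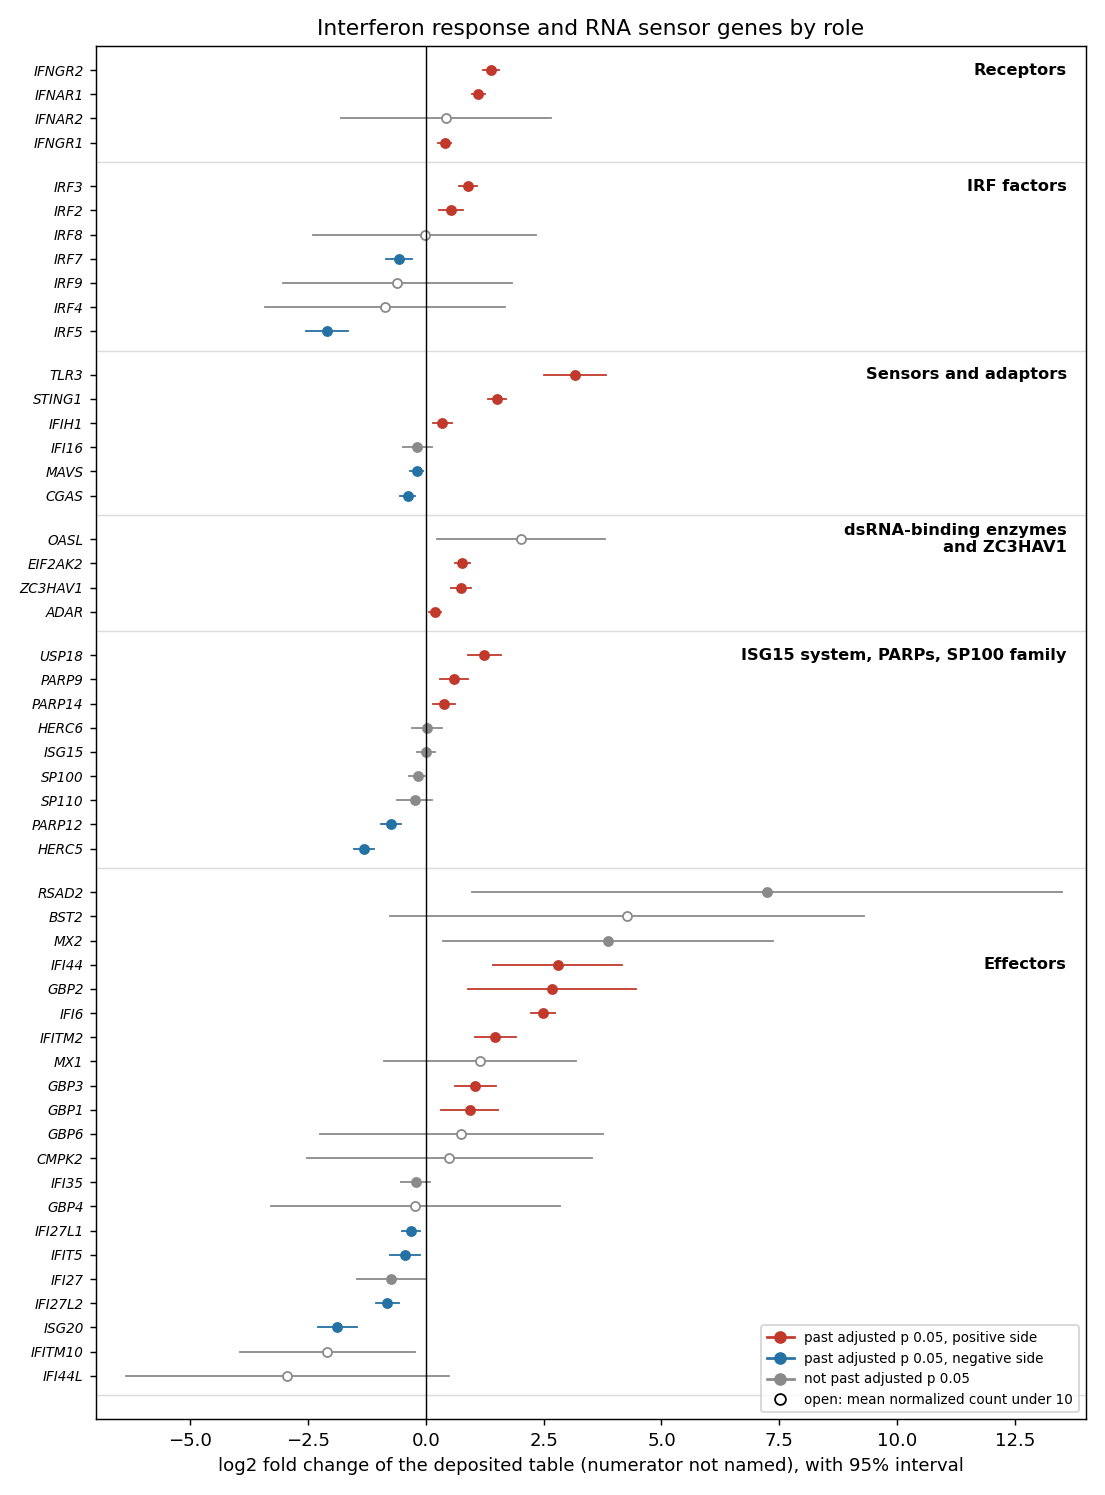
Log2 fold change of the 51 genes (x axis, points) with 95% intervals (lines), grouped by role and ordered by value within a role, from the authors' deposited table. Red and blue mark genes past an adjusted p of 0.05 on the positive and negative side, grey the 21 that did not pass, and open points the 12 with a mean count under 10. The called receptors and the called genes of the double-stranded RNA enzyme group (EIF2AK2, ZC3HAV1 and ADAR) lie right of 0, while the other 4 roles have called genes on both sides.

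RefSeq promoters on GRCh38.p14, from 250 bases before to 50 after the first listed gene start, were found for 39 of the 51 genes. The ISRE core, here GAAA followed by any 2 bases and a second GAAA on either strand, occurred in 18 of these 39 (46.2%), against 2.91% of 14109 promoters of genes in the table. The GAS core, here TTC and GAA with any 3 bases between them, which reads alike on both strands, occurred in 8 of 39 (20.5%), against 6.44%. With any listed start counted, the ISRE core occurred in 20 of 39 genes, against 3.94%. The GAS match of IFI27 overlapped its ISRE matches, and a BST2 match overlapped as well.

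Stretches from 5 promoters show the ISRE core in genes on the positive side, on the negative side and near 0. Capitals mark matches to the ISRE core or to its reverse complement, and matches that overlap run together. Each is read on the strand of its gene, 5′ to 3′, and none overlaps an annotated exon in GENCODE release 29. IFI6 lies at chr1:27672276-27672348 (minus strand, 156 to 84 bases before the start). IFI44 lies at chr1:78649729-78649788 (plus strand, the last 60 bases before the start). ISG15 lies at chr1:1013362-1013421 (plus strand, 135 to 76 bases before the start). IFI27 lies at chr14:94110610-94110669 (plus strand, 126 to 67 bases before the start), and HERC5 at chr4:88456994-88457054 (plus strand, 125 to 65 bases before the start).
IFI6: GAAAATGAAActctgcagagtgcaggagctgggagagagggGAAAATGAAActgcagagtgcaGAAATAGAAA
IFI44: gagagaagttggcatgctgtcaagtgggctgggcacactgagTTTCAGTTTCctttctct
ISG15: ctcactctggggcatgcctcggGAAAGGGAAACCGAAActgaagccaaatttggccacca
IFI27: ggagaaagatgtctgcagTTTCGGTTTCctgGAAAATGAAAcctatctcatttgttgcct
HERC5: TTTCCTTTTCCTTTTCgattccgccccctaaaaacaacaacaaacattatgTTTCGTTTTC

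These 5 genes had log2 fold changes of 2.49 for IFI6, 2.80 for IFI44, 0.00 for ISG15, -0.75 for IFI27 and -1.32 for HERC5 in the authors' deposited table, with IFI27 and ISG15 not past the threshold. ISG20, with a single match, had -1.88 in the authors' deposited table. The stretch printed around that match lies at chr15:88638937-88638966 on the plus strand (79 to 50 bases before the start). Unlike the 5 stretches above, it overlaps annotated exons in GENCODE release 29 (4 exon records).
ISG20: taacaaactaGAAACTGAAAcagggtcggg

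Sorted by call, the ISRE core occurred in 8 of 14 promoters of positive members, 4 of 8 of negative members and 6 of 17 of members that did not pass. No promoter was found for the positive genes STING1, USP18, IFITM2, GBP2, IRF2 and IRF3 or the negative genes IRF7 and CGAS. The split therefore leaves these called genes out, and with them IFNAR2, MX2, OASL and IFITM10, which did not pass. A match is a run of letters and not a measured binding site.

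**Figure D2:**
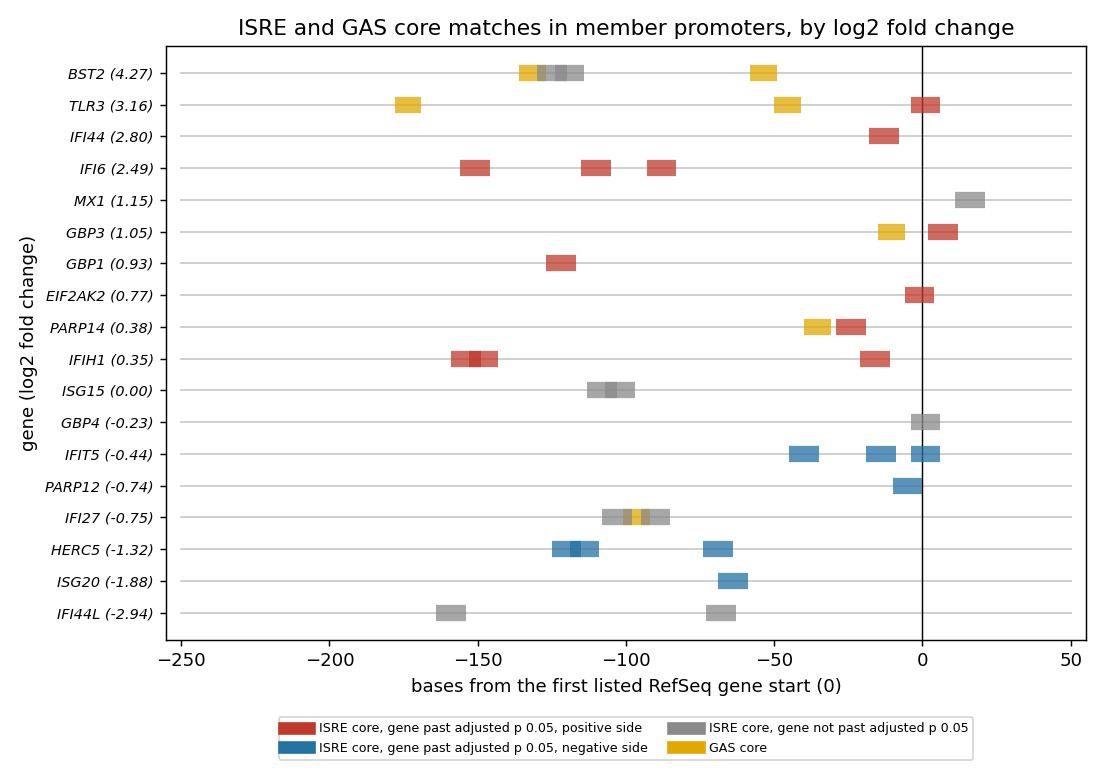
Position of ISRE core matches (coloured by call) and GAS core matches (yellow) in the 18 member promoters that hold an ISRE core, in bases from the gene start (x axis), with genes ordered from the highest log2 fold change to the lowest (in brackets, from the authors' deposited table). The genes shown run from BST2 at 4.27 to IFI44L at -2.94, neither past the threshold. Those past it run from TLR3 at 3.16 to ISG20 at -1.88. RSAD2, at 7.24, has no match.

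Of 4 listed receptor genes, 3 passed, all positive in the authors' deposited table. These 3 have mean counts of 100 or more, where 74.1% of all genes passed and 34.1% passed on the positive side. IFNAR1 (chromosome 21, 33324477 to 33359862, GRCh38) encodes a chain of the type I interferon receptor and had a mean normalized count of 3219 and a log2 fold change of 1.11 (adjusted p = 1.71e-59, SE 0.07) in the authors' deposited table, or 2.16-fold. IFNGR2, which encodes the signalling chain of the interferon-gamma receptor, had 1.38 (adjusted p = 2.83e-52, SE 0.09) in the authors' deposited table, or 2.60-fold, at a mean normalized count of 1107. The ligand-binding chain gene IFNGR1, on chromosome 6, had a smaller value of 0.40 (adjusted p = 2.14e-07, SE 0.07) at a mean normalized count of 3088 in the authors' deposited table. The intervals of the IFNGR2 and IFNGR1 values, 1.20 to 1.55 and 0.25 to 0.54, did not overlap.

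IFNAR2, which encodes the other chain of the type I receptor, was listed at a mean normalized count of only 5.49 in the authors' deposited table (0.42, adjusted p = 0.824, SE 1.14). In GENCODE release 29, 83.25% of its exonic bases also belong to other genes, mainly the readthrough gene IFNAR2-IL10RB. Reads in such bases can be dropped or split in counting, so its level is uncertain, and the sources used here do not give the authors' annotation. IFNAR2, IL10RB, IFNAR1 and IFNGR2 form a cluster on chromosome 21. IL10RB, a receptor chain shared by interferon-lambda and interleukin 10, lay at 2.71 (adjusted p = 5.05e-05, SE 0.62) in the authors' deposited table, with 38.08% of its exonic bases in that readthrough gene. IFNLR1, the other interferon-lambda receptor chain and named here after its value was seen, did not pass (-0.09, adjusted p = 0.688, SE 0.15) in the authors' deposited table.

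IRF genes, which encode the transcription factors of the response, divided. IRF3, the factor activated by signalling from the sensors, had 0.89 (adjusted p = 3.13e-18, SE 0.10) at a mean normalized count of 1216 in the authors' deposited table. Its exons overlap those of BCL2L12 on the opposite strand over 19.35% of their length, and the sources used here do not say whether counting used strand. IRF2, known as an antagonist of IRF1, had 0.54 (adjusted p = 0.000125, SE 0.13) at a mean normalized count of 449.8 in the authors' deposited table. IRF7, which amplifies interferon production and is itself interferon-induced, had an opposite value of -0.57 (adjusted p = 0.000254, SE 0.14) at a mean normalized count of 462 in the authors' deposited table. IRF5, a factor of inflammatory cytokine genes, had -2.11 (adjusted p = 1.13e-19, SE 0.23) at a mean normalized count of 144 in the authors' deposited table, a 4.31-fold difference.

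The lymphoid and myeloid factors IRF4 and IRF8 stood at mean normalized counts of 4.19 and 4.01 and did not pass in the authors' deposited table. IRF4 had a log2 fold change of -0.87 (adjusted p = 0.664, SE 1.30) and IRF8 had -0.03 (adjusted p = 0.991, SE 1.21) in the authors' deposited table. IRF9, the DNA-binding partner of STAT2, had a mean normalized count of 3.62 and a log2 fold change of -0.61 (adjusted p = 0.763, SE 1.24) in the authors' deposited table. For IRF9, 48.44% of exonic bases belong also to another gene on the same strand in GENCODE release 29, so its level is uncertain for the reason given for IFNAR2.

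Among the sensors, TLR3 (chromosome 4, 186069152 to 186088069, GRCh38), the endosomal receptor for double-stranded RNA, had the largest called value of all 51 genes. Its log2 fold change was 3.16 (adjusted p = 3.39e-20, SE 0.33) at a mean normalized count of 78.8 in the authors' deposited table, or 8.95-fold with an interval of 5.68 to 14.1. STING1, the adaptor for cytosolic DNA, had 1.51 (adjusted p = 2.38e-48, SE 0.10) at a mean normalized count of 1169.6 in the authors' deposited table. IFIH1, which encodes the cytosolic sensor of long double-stranded RNA, had 0.35 (adjusted p = 0.00158, SE 0.10) at a mean normalized count of 751 in the authors' deposited table, but missed the threshold with equal total counts (adjusted p = 0.0505).

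Partners of these sensors lay on both sides. CGAS, MAVS and TICAM1 are described here, and the partners with positive calls, ENPP1, RNF135, IKBKE and PRKRA, with the further lists. CGAS, the enzyme upstream of STING1, lay at -0.39 (adjusted p = 7.98e-06, SE 0.08) at a mean normalized count of 1383 in the authors' deposited table, and its interval of -0.55 to -0.23 did not overlap that of STING1, 1.31 to 1.71. MAVS, the adaptor downstream of IFIH1, had -0.20 (adjusted p = 0.0178, SE 0.07) at a mean normalized count of 2656 in the authors' deposited table, and did not pass with fold changes shifted to a median of 0 (adjusted p = 0.158). TICAM1, the adaptor of TLR3 and not of the chosen set, had -1.06 (adjusted p = 3.18e-39, SE 0.08) in the authors' deposited table. IFI16, a sensor of nuclear DNA, did not pass (-0.19, adjusted p = 0.378, SE 0.16) at a mean normalized count of 263 in the authors' deposited table.

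In the group of double-stranded RNA enzymes and related antiviral proteins, 3 of 4 listed genes passed, all positive, in the authors' deposited table. All 3 have mean counts of 100 or more, where 74.1% of all genes passed. ISG20 and IFIT5, counted among the effectors, also act on RNA and lay on the negative side. EIF2AK2, which encodes PKR, the kinase that halts translation initiation on binding double-stranded RNA, had 0.77 (adjusted p = 5.59e-20, SE 0.08) in the authors' deposited table. ZC3HAV1, the antiviral protein that targets CpG-rich RNA for decay, had 0.74 (adjusted p = 4.69e-11, SE 0.11) in the authors' deposited table. ADAR, which edits adenosine to inosine in double-stranded RNA and had the highest mean normalized count of the 51 genes at 3796, had 0.19 (adjusted p = 0.0103, SE 0.06) in the authors' deposited table. With equal total counts, ADAR lay at 0.07 and did not pass (adjusted p = 0.442). OASL, an OAS-like protein without synthetase activity, was listed at 8.46 mean normalized counts and did not pass (2.02, adjusted p = 0.0604, SE 0.91) in the authors' deposited table. OAS1, OAS2, OAS3 and RIGI, names that the rule would take, were not among the 51 genes it found.

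ISG15, its protease gene USP18 and its ligase gene HERC5 had intervals that did not overlap each other. ISG15, the ubiquitin-like modifier, had 0.00 (adjusted p = 0.992, SE 0.10) in the authors' deposited table, with an interval of -0.20 to 0.20 at a mean normalized count of 889. USP18, the protease that removes ISG15 and restrains the type I receptor, had 1.24 (adjusted p = 7.15e-11, SE 0.18) at a mean normalized count of 231 in the authors' deposited table. HERC5, the ligase that attaches ISG15, had -1.32 (adjusted p = 2.41e-33, SE 0.11) at a mean normalized count of 906 in the authors' deposited table, a 2.50-fold difference. UBA7 and UBE2L6, which encode the activating and conjugating enzymes of ISG15 and are named here after their values were seen, did not pass (1.54, adjusted p = 0.104, SE 0.78, and 0.35, adjusted p = 0.113, SE 0.18) in the authors' deposited table. The UBE2L6 interval, -0.01 to 0.70, overlapped that of ISG15. The neighbour of HERC5 on chromosome 4, HERC6, had 0.02 (adjusted p = 0.941, SE 0.16) in the authors' deposited table, with an interval that did not overlap that of HERC5.

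PARP9 and PARP14, ADP-ribosyltransferase family genes that share a locus on chromosome 3, had 0.59 (adjusted p = 0.000382, SE 0.15) and 0.38 (adjusted p = 0.00325, SE 0.12) in the authors' deposited table, the second not past the threshold with equal total counts (adjusted p = 0.0552). DTX3L, the binding partner of PARP9 that shares its promoter region, lay opposite at -0.78 (adjusted p = 4.69e-09, SE 0.13) in the authors' deposited table. PARP12, a zinc finger member of the family, had -0.74 (adjusted p = 2.65e-11, SE 0.11) in the authors' deposited table. The nuclear body genes SP100 and SP110 did not pass (-0.18, SE 0.10, and -0.24, SE 0.19) in the authors' deposited table, although SP100 passed on the negative side with equal total counts (adjusted p = 0.00601).

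Among 21 listed effector genes, 6 positive and 4 negative genes passed in the authors' deposited table, or 47.6%, against 42.4% of all genes. IFI6 (chromosome 1, 27666061 to 27672218, GRCh38), a mitochondrial and endoplasmic reticulum protein known to inhibit flavivirus replication, had 2.49 (adjusted p = 9.14e-79, SE 0.13) at a mean normalized count of 861 in the authors' deposited table. That is 5.61-fold, and the adjusted p is the smallest of the 51 genes. IFITM2, which blocks viral entry at the membrane of endosomes, had 1.47 (adjusted p = 2.39e-10, SE 0.22) at a mean normalized count of 214 in the authors' deposited table. Its exons overlap those of IFITM1 over 22.75% of their length, and its close paralogs can share reads, so the value is uncertain. IFI44 stood at 2.80 (adjusted p = 0.000214, SE 0.70) at a mean normalized count of 18.9 in the authors' deposited table, while its neighbour IFI44L, at 2.86 mean normalized counts, had -2.94 (adjusted p = 0.18, SE 1.75).

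The guanylate-binding protein genes of chromosome 1, interferon-induced GTPases that attack the membranes of intracellular pathogens, had 3 positive calls among 5 listed members. GBP1 and GBP2 have mean counts of 70.8 and 59.7, in the range where 26.7% of all genes passed, and GBP3 has 131, in the range where 74.1% did. GBP1 had 0.93 (adjusted p = 0.00752, SE 0.31), GBP2 had 2.68 (adjusted p = 0.00907, SE 0.91) and GBP3 had 1.05 (adjusted p = 1.3e-05, SE 0.23) in the authors' deposited table, and their intervals overlapped. GBP4 and GBP6 were listed at 2.82 and 4.16 mean normalized counts in the authors' deposited table and did not pass. Paralogs of this cluster can share reads.

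On the negative side, ISG20, an exonuclease that degrades single-stranded RNA, had -1.88 (adjusted p = 1.7e-18, SE 0.21) in the authors' deposited table, a 3.68-fold difference, at a mean normalized count of 206. IFIT5, which binds RNA with 5′ phosphates, had -0.44 (adjusted p = 0.0157, SE 0.16) in the authors' deposited table. The neighbouring genes IFI27L1, IFI27 and IFI27L2 of chromosome 14 had -0.32 (SE 0.10), -0.75 (SE 0.37) and -0.82 (SE 0.13) in the authors' deposited table, with adjusted p-values of 0.00308 for IFI27L1 and 6.51e-10 for IFI27L2. IFI27L1 had the highest mean normalized count of the effectors, at 911, and IFI27, the member best known as interferon-induced, did not pass (adjusted p = 0.0925). It passed with equal total counts (adjusted p = 0.0444). IFI35 did not pass (-0.22, adjusted p = 0.279, SE 0.16) in the authors' deposited table. IFIT1, IFIT2, IFIT3, IFITM1, IFITM3 and IRF1 were not analysed here.

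**Figure D3:**
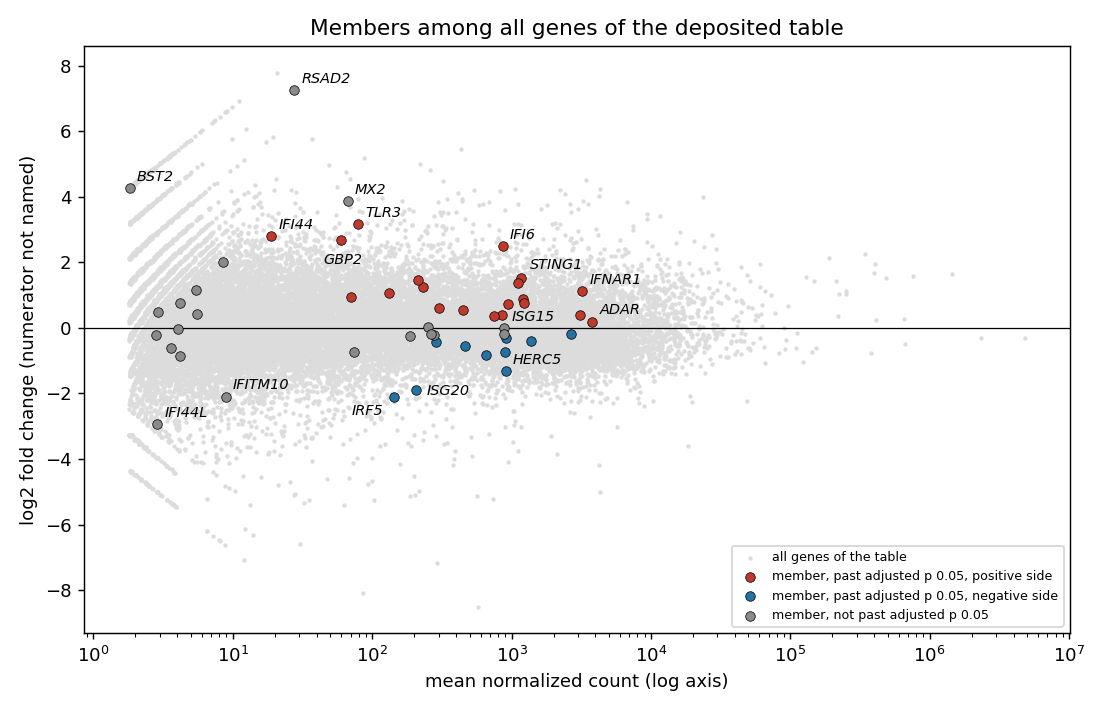
Log2 fold change (y axis) against mean normalized count (log x axis) for all genes of the authors' deposited table (light grey) and the 51 genes (coloured by call). IFI6, STING1 and IFNAR1 stand out at high counts on the positive side, IRF5, ISG20 and HERC5 on the negative side, and ISG15 lies at 0.00.

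A few effector genes had large values with errors that were wide for their mean count. RSAD2, which encodes viperin, had the highest value of the 51 genes at 7.24, but with an SE of 3.20 (adjusted p = 0.0547) at a mean normalized count of 27.6 in the authors' deposited table. The median SE of the 200 genes nearest to it in mean count was 0.499, and none of them had an SE as wide. MX2, a GTPase that restricts HIV at the nuclear pore, had 3.86 (adjusted p = 0.0691, SE 1.78) at 66.7 mean normalized counts in the authors' deposited table, against a median SE of 0.331 among genes of like count. GBP2 passed with an SE of 0.91 in the authors' deposited table, against 0.343 among genes of like count, which placed it at percentile 99.5. BST2, which encodes tetherin and was listed at 1.82 mean normalized counts, also had an SE wider than its 200 neighbours (4.27, SE 2.56) in the authors' deposited table, and it did not pass.

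The genes of like count were matched on mean count and not on fold change. Their median log2 fold changes ran from 0.14 for GBP2 to 0.26 for RSAD2, with MX2 and BST2 between. The values of GBP2, MX2, BST2 and RSAD2 themselves ran from 2.68 to 7.24 in the authors' deposited table. Whether the wide SEs come with the spread among libraries or with the size of the fold change was not tested. Which libraries hold the RSAD2, MX2 and GBP2 counts was not tested either. MX1, the neighbour of MX2, was listed at 5.44 mean normalized counts (1.15, adjusted p = 0.425, SE 1.04) in the authors' deposited table. CMPK2, which is divergent to RSAD2 and overlaps its start, had 2.90 (0.50, adjusted p = 0.849, SE 1.54) in the authors' deposited table. The intervals of MX1 and MX2 overlapped, and so did those of CMPK2 and RSAD2. IFITM10, listed at 8.91, did not pass either (-2.10, adjusted p = 0.0623, SE 0.95).

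**Figure D4:**
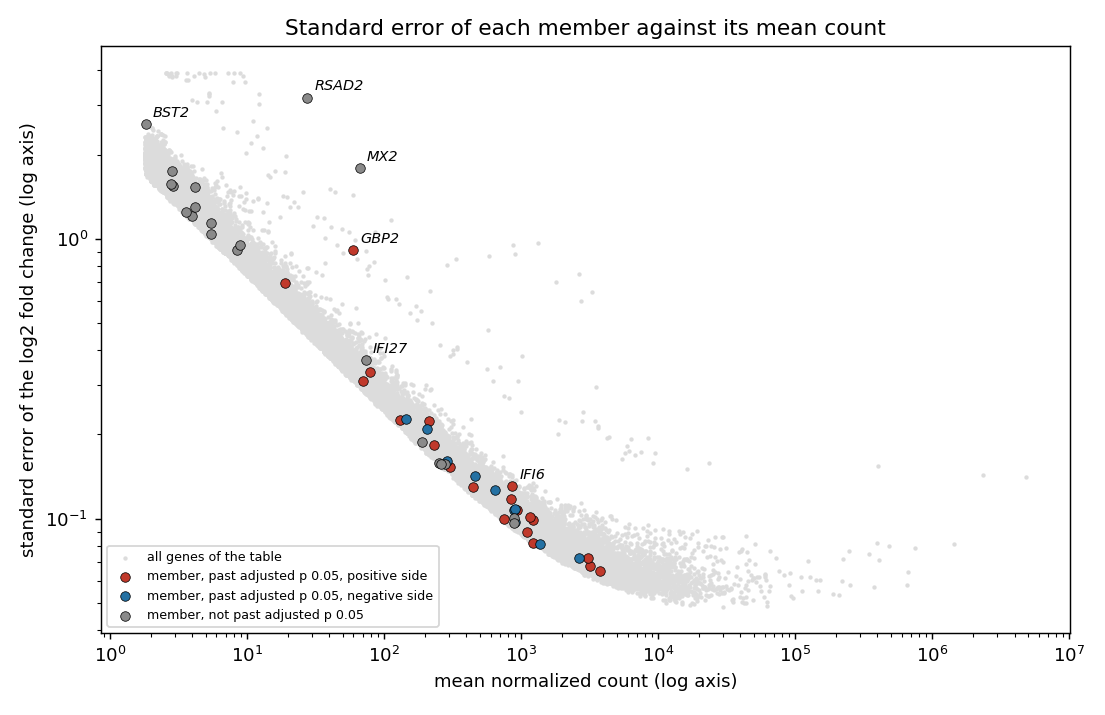
Standard error of the log2 fold change (log y axis) against mean normalized count (log x axis) for all genes (light grey) and the 51 genes (coloured by call) of the authors' deposited table. Most of the 51 genes follow the band of all genes, while RSAD2, MX2 and GBP2 lie above it with SE values of 3.20, 1.78 and 0.91.

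Levels were compared among the 51 genes as mean normalized count per kilobase of merged GENCODE exons, an approximation that counts every annotated exon as used and has no spread over samples. The mean pools both groups, which differ 5.61-fold for IFI6 and 1.00-fold for ISG15, so the order within a group can differ and was not analysed here. IFI6 (996), ISG15 (945) and IFNGR1 (942) had the highest pooled mean normalized counts per kilobase from the authors' deposited table. IFNAR1 (511), IFI27L2 (392.3), ADAR (391.7), IFI27L1 (383), IFNGR2 (374), CGAS (333), IRF3 (321), STING1 (304) and MAVS (226) followed in mean normalized count per kilobase from the authors' deposited table. TLR3, with the largest called fold change, stood at 11.7 per kilobase, MX2 at 5.11, RSAD2 at 5.72, MX1 at 0.632 and IFI44L, the lowest, at 0.279, from the authors' deposited table.

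Other genes of the pathway were read from fixed lists and were divided too. Of 11 listed JAK-STAT genes, 3 positive and 3 negative genes passed in the authors' deposited table, and the median was -0.0042. These calls are 54.5% of the list, whose median mean count is 819, against 42.4% of all genes. Among genes with a mean count of 100 or more 74.1% passed, but the list reaches down to 11.3 mean counts. STAT2, whose product is the partner of IRF9, had 0.67 (adjusted p = 5.9e-11, SE 0.10) and the kinase gene TYK2 had 0.23 (adjusted p = 0.00362, SE 0.07) in the authors' deposited table. JAK1, the kinase shared by all interferon receptors, had -0.95 (adjusted p = 4.24e-52, SE 0.06) in the authors' deposited table. STAT3 (-0.54, SE 0.06) and the phosphatase gene PTPN2 (-0.63, SE 0.08) were the other negative JAK-STAT calls in the authors' deposited table.

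Of 19 listed partners of nucleic acid sensing, 4 positive and 9 negative genes passed in the authors' deposited table, and the median was -0.26. That is 68.4% of the list, whose median mean count is 452. Among all genes with a mean count of 100 or more, 74.1% passed, and 39.9% passed on the negative side. The list reaches down to 2.17 mean counts, so it covers a wider range of count than those genes. On the positive side were ENPP1, which hydrolyses the cGAMP made by cGAS (1.67, SE 0.11), the RIG-I ubiquitin ligase gene RNF135 (1.22, SE 0.17), the PKR activator gene PRKRA (0.41, SE 0.13) and the kinase gene IKBKE (0.94, SE 0.40), in the authors' deposited table. The adaptor gene TRAF3 (-1.08, SE 0.07), TICAM1, the ligase gene TRIM25 (-0.92, SE 0.07) and TBK1 (-0.90, SE 0.10), the kinase of IRF3, had the smallest adjusted p-values among the negative members of the authors' deposited table.

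Of 36 listed further interferon-stimulated genes, 11 passed on each side in the authors' deposited table, and the median was 0.20. That is 61.1% of the list, whose median mean count is 534. The list reaches down to 2.20 mean counts, so it also covers a wider range than the genes behind that 74.1%. B2M, the light chain of MHC class I (2.00, SE 0.07), the secreted glycoprotein gene LGALS3BP (1.90, SE 0.11), the nucleotidase gene NT5C3A (1.07, SE 0.08) and TRIM14 (1.37, SE 0.12) had the smallest adjusted p-values among positive calls in the authors' deposited table. TDRD7 (-1.52, SE 0.10), TRAFD1 (-1.001, SE 0.08), the aminopeptidase gene LAP3 (-0.81, SE 0.09) and DTX3L did so on the negative side in the authors' deposited table.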

How the data were processed

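Reads of 6 libraries, 3 per group, were processed by the authors with fastp 0.23.2, STAR 2.7.10a, featureCounts and DESeq2 on hg38, per the submitters' processing notes, which give no order or settings. A TruSeq kit was used for the libraries, per the labels' protocols. The mean normalized count is a signal that the authors averaged over libraries, per the file headers. The fold change and its SE are taken as log2, as DESeq2 reports them, since the authors' header names no base. The deposited Wald statistic is a score, and fold change over SE returns it within 2.24e-13. The p-values and adjusted p-values are the authors' deposited ones, and the second equal a Benjamini-Hochberg adjustment within 1.39e-15.

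A pair of repeated rows was merged, leaving 25287 genes of 25289 rows. No new test per gene was run, because no counts per library were analysed here, and the planned count test was replaced by the authors' own, as the design provided. The 95% intervals reach 1.96 SE to each side of a fold change. Coordinates, exon lengths and exonic overlaps come from GENCODE release 29 on GRCh38, which held all 51 genes, and promoters from RefSeq tables on GRCh38.p14. Fold changes were shifted for 2 alternatives, with the Wald p and its adjustment recomputed. That step was tested on simulated data. Every gene of the set was described. The mean count, log2 fold change, SE and adjusted p were given for genes past an adjusted p of 0.05 and 1 log2 unit or more from 0, for sensors, adaptors, receptors and IRF genes, and for the most abundant member of each role. Of the further lists, up to 4 members per side were named, and 1 gene is not reported here. The members and lists were chosen with earlier results of these data known. Tools were Python 3.11.15, scipy 1.17.1, pandas 2.3.3, numpy 2.4.6 and matplotlib 3.10.9.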

Additional observations from a re-analysis of the deposited data

How the results depend on the processing

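The counts of 20 positive and 10 negative genes stayed within 1.5 times under a stricter adjusted p of 0.01 (19 and 8), an unadjusted p under 0.05 (23 and 12), a mean count of at least 10 (21 and 10), a shift to a median of 0 (20 and 9) and a shift to equal total counts (17 and 13). Without members whose exons overlap another gene by over 10 percent, chosen after seeing the data, they were 17 and 10. With a minimum distance of 1 log2 unit from 0 they were 10 and 3. The median log2 fold change ran from 0.26 with equal total counts to 0.45 with a median of 0. ALDH18A1 passed with equal total counts at -0.19 (adjusted p = 0.0227) and not as deposited or under the other settings. RSAD2 passed when genes under 10 counts were left out (adjusted p = 0.0414), and IFITM10 with equal total counts (adjusted p = 0.0459). Only the 2 shifts, of -0.0689 to a median of 0 and 0.119 to equal total counts, alter a log2 fold change. Both are smaller than the smallest called distance from 0, 0.19 for ADAR. No called gene could therefore change sign under the settings tried. No paired analysis was possible because the table has no columns of single libraries, and leaving out single replicates was not run for the same reason. Precision was low for the 12 genes with a mean count under 10, whose SE was 0.909 or more. These counts stand beside a sum of 43175646 over all genes, and depth per library was not analysed here.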
